A study of Homo sapiens with 12 samples.

Results

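The alpha-arrestins are a family of adaptor proteins, and 5 of their genes were followed here: ARRDC1, ARRDC2, ARRDC3, ARRDC4 and TXNIP (thioredoxin-interacting protein). They were taken by symbol from a table of 25049 genes, and all 5 had enough reads to be among the 21974 genes tested. They were chosen by symbol, with their levels and fold changes in these samples already known. Which of those values decided the choice is not recorded, so their levels and fold changes are given as a description, without p-values. Whether one of them was called, that is, passed the genome-wide threshold of 0.05 after Benjamini-Hochberg adjustment, is stated as part of that description. P-values are given for genes outside the list only.

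The 12 samples were of MDA-MB-231b, a bone-tropic derivative of the established human triple-negative breast cancer line MDA-MB-231 that was recovered from the bone marrow of nude mice. The 4 groups of 3 samples were GLI2 KO cells with paclitaxel, GLI2 KO cells with DMSO, WT cells with paclitaxel and WT cells with DMSO. Paclitaxel, a drug that stabilises microtubules, was given at 50 nM for 2 days, and DMSO is its solvent. GLI2 is a transcription factor at the end of the Hedgehog pathway. GLI2 KO cells had received Cas9 and a guide RNA against GLI2 by lentivirus, and the design text gives a non-targeted guide for the other arm, which the labels call WT. Cells of every group therefore share the in vivo passage, and on that reading also transduction. The sources used here do not say whether the GLI2 KO cells are a clone or a mixed population, or where in the gene the edit lies.

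Alpha-arrestins carry an arrestin fold and short proline-rich motifs that bind ubiquitin ligases of the NEDD4 family, so that membrane proteins held by the adaptor are ubiquitinated and taken up or sorted. TXNIP in addition binds thioredoxin through a disulfide bond, and TXNIP and ARRDC4 both lower glucose uptake by acting on glucose transporters. The genes of TXNIP and ARRDC4 are well-known targets of MondoA (MLXIP) and ChREBP (MLXIPL), transcription factors that respond to glucose phosphates. ARRDC3 has been described in breast cancer cells as an adaptor for integrin beta-4 (ITGB4). ARRDC1 recruits the ESCRT protein TSG101 to the plasma membrane and drives the budding of small vesicles.

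Libraries held 83230948 to 109018776 counts, and levels are given as CPM, counts scaled to library size by TMM factors. Sampling noise did not account for the spread between any pair of replicates, so no library was a repeat deposit, and the 3rd GLI2 KO library in each treatment and the 2nd WT DMSO library lay farthest from the others of their group. GLI2 transcripts were still counted in the GLI2 KO libraries, at 4.16 ± 0.211 CPM with paclitaxel and 9.20 ± 0.925 CPM with DMSO, against 5.68 ± 0.722 and 10.8 ± 0.536 CPM in WT cells (SD, n = 3 each). That is lower in GLI2 KO cells in both treatments by edgeR (adjusted p = 0.000243 with paclitaxel and 0.0253 with DMSO), but a frameshift can leave the transcript in place, so it checks the labels only weakly. All 8 markers of a mesenchymal triple-negative line were in the table, with summed levels of 4957 to 5314 CPM (GLI2 KO, paclitaxel), 6416 to 6742 (GLI2 KO, DMSO), 5333 to 5377 (WT, paclitaxel) and 6510 to 6649 CPM (WT, DMSO). Of 6 haematopoietic markers 4 were in the table and summed to at most 1.82 CPM, and 4 of 6 stromal markers summed to at most 12.7 CPM. Both sums were higher with paclitaxel in each genotype, with haematopoietic sums of 1.48 to 1.82 CPM (paclitaxel) and 0.718 to 1.0 CPM (DMSO) in GLI2 KO cells, and 1.05 to 1.39 CPM (paclitaxel) and 0.395 to 0.464 CPM (DMSO) in WT cells. Stromal sums were 11.4 to 12.7 CPM (paclitaxel) and 6.01 to 7.38 CPM (DMSO) in GLI2 KO cells, and 9.62 to 11.3 CPM (paclitaxel) and 7.56 to 8.45 CPM (DMSO) in WT cells. Of the hormone receptor genes that the label triple-negative bears on, ESR1 was not analysed here, and PGR had 243 counts with paclitaxel and 640 with DMSO summed over the GLI2 KO libraries, against 2 and 1 in WT cells. The 5 of 6 hormone receptor and luminal genes in the table, which include far more abundant ones, summed to 70.9 to 71.7 CPM (paclitaxel) and 75.4 to 80.7 CPM (DMSO) in GLI2 KO cells, and 68.5 to 70.0 CPM (paclitaxel) and 79.2 to 80.4 CPM (DMSO) in WT cells. FOXA1, another of these, was the 1 called lower in GLI2 KO cells (log2 difference -0.63 ± 0.05 with paclitaxel and -0.48 ± 0.05 with DMSO, edgeR adjusted p = 5.37e-10 and 5.43e-08). GATA3 was higher (0.60 ± 0.07 and 0.72 ± 0.08, edgeR adjusted p = 1.98e-07 and 3.60e-08), as was TFF1 (1.41 ± 0.23 and 2.21 ± 0.24, adjusted p = 1.49e-05 and 4.12e-08). Of the 5 genes, 4 were called higher and 1 lower with paclitaxel, and 3 and 1 with DMSO. Over all tested genes 23.4% and 22.2% were called in those directions with paclitaxel, and 22% and 19.6% with DMSO. Their part in the results was not tested.

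The upstream sequences are shown for ARRDC3, ARRDC4 and TXNIP because these are the genes that moved strongly with paclitaxel. Each stretch runs from base -250 to base -51 before a RefSeq transcription start (GRCh38.p14, on the gene's own strand), and capitals mark the motifs found by a search of both strands. The motifs were the E-box CACGTG, the CCAAT box, the forkhead-type core GTAAACA, and a ChoRE-like pair, which is any combination of CACGNG or CNCGTG with a second such element 5 bases away.
ARRDC3, chr5:91383368-91383567, minus strand: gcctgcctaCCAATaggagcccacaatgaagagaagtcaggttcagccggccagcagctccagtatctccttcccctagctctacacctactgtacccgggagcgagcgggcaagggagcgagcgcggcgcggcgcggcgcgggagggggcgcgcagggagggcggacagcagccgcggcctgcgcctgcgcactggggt
ARRDC4, chr15:97960453-97960652, plus strand: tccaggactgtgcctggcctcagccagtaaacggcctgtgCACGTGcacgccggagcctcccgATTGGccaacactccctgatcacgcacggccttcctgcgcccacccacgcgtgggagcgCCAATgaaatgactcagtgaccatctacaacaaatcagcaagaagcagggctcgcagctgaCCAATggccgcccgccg
TXNIP, chr1:145996630-145996829, minus strand: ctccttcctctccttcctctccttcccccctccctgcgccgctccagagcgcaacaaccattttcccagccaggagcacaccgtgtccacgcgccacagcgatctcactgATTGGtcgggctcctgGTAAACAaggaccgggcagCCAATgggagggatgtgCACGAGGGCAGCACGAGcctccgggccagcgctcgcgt
A RefSeq start inside the ARRDC3 gene has a forkhead-type core in this stretch, which covers bases -39 to -13 and lies in an annotated exon.
ARRDC3, inner start, chr5:91380110-91380136, minus strand: gcccggcactTGTTTACcacggcgcgg

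The 3 upstream stretches differed in what they held. ARRDC4 had the palindromic E-box at -210 to -205 and CCAAT boxes ending at -183, -124 and -63. TXNIP had the ChoRE-like pair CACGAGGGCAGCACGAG at -88 to -72, CCAAT boxes ending at -136 and -101, and between them a forkhead-type core at -124 to -118. The outer ARRDC3 start had a single CCAAT box at -241 to -237 and none of the other motifs in this window. Elsewhere in the windows of the 5 genes, ARRDC1 had a CCAAT box at -80 to -76 and an ARRDC2 start had one at -93 to -89. Over 35116 RefSeq windows of the same 250 bases, CCAAT was present in 32.0%, CACGTG in 6.34%, GTAAACA in 2.98% and the ChoRE-like pair in 23 windows (0.0655%). The motifs were chosen with the sequences in view, and a match is a description of letters, not a measured binding site.

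Paclitaxel went with higher ARRDC3, ARRDC4 and TXNIP and lower ARRDC1 in both genotypes, and the rise of ARRDC3 was far smaller in GLI2 KO cells than in WT cells. By the genome-wide edgeR fit, 3 of the 5 genes were called higher and 1 lower with paclitaxel in GLI2 KO cells, where 33% and 32.2% of all tested genes were called in those directions. In WT cells 4 were called higher and 1 lower, against 34.6% and 32.1% of all genes. Since 65.2% of genes in GLI2 KO cells and 66.7% in WT cells were called in either direction, the counts of calls lie near the background and are no result about the 5 genes. With library totals in place of TMM, 10398 genes were called higher and 3831 lower in GLI2 KO cells, and 10352 and 4295 in WT cells. The median log2 fold change of the 5 genes was 0.58 in GLI2 KO cells and 2.20 in WT cells, against 0.02 and 0.03 over all genes. Each called gene also had replicates that did not overlap between the groups, and the uncalled one overlapped; without overlap, 34.4% of all genes were higher and 32.8% lower in GLI2 KO cells, and 37.1% were higher and 34.5% lower in WT cells. In bulk RNA, fewer cells that express a gene and less RNA of it per cell cannot be told apart.

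**Figure D1:**
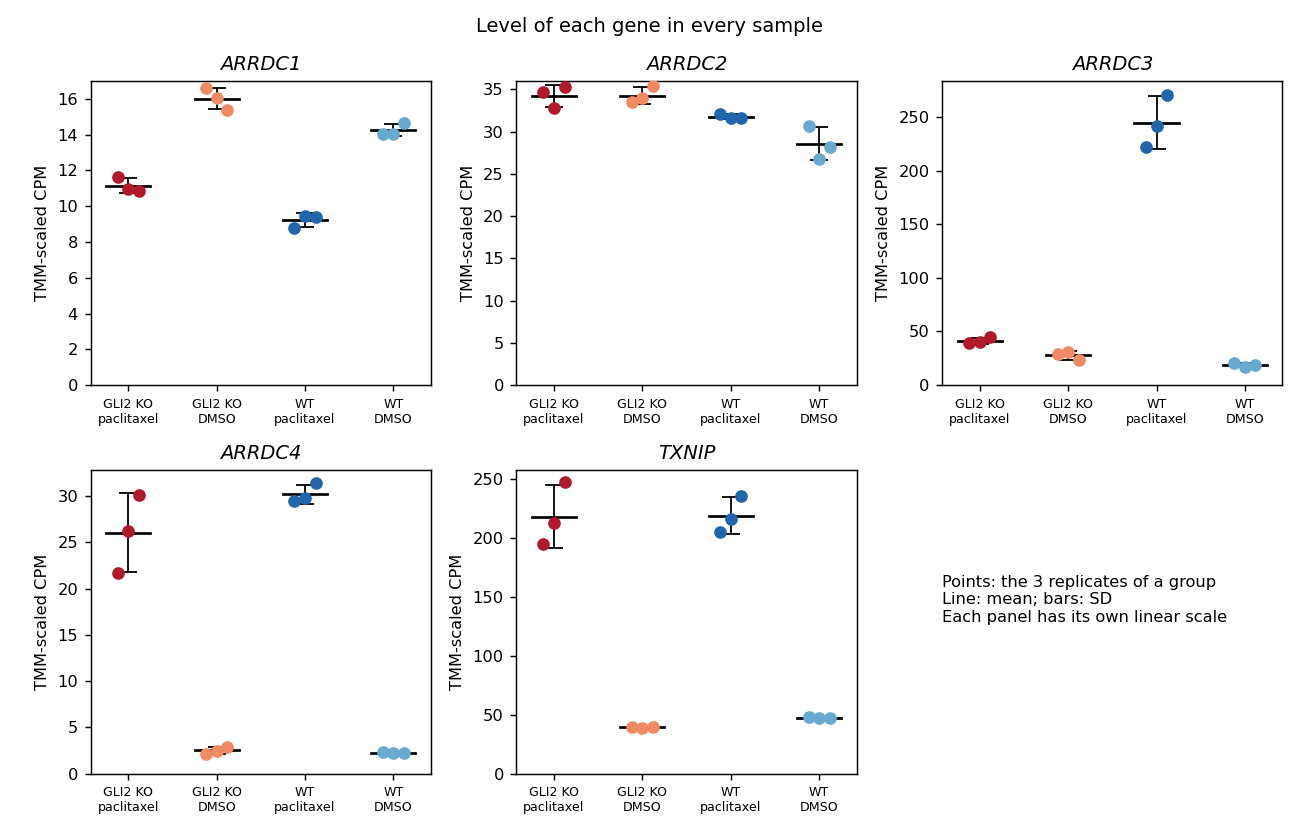
Level of each of the 5 genes in TMM-scaled CPM (linear axis from 0, a separate scale per panel) in the 3 replicates of each group, with the mean as a line and the SD as bars. ARRDC3 stands at 222 to 271 CPM in WT cells with paclitaxel and below 45 CPM elsewhere, while ARRDC4 and TXNIP are high with paclitaxel in both genotypes.

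ARRDC3 (ENSG00000113369, chr5:91368724-91383359, minus strand, GRCh38) showed the largest difference between genotypes of the 5. Its levels with paclitaxel were 38.8, 40.4 and 44.6 CPM in GLI2 KO cells and 222, 241 and 271 CPM in WT cells. With DMSO they were 29.1, 30.4 and 23.3 CPM in GLI2 KO cells and 20.1, 16.5 and 18.4 CPM in WT cells. The WT paclitaxel libraries thus stood apart from all others, and in each genotype paclitaxel and DMSO libraries did not overlap. ARRDC3 was higher with paclitaxel 1.5-fold in GLI2 KO cells (log2 fold change 0.58 ± 0.12, SE) and 13.3-fold in WT cells (3.73 ± 0.13). The GLI2 KO effect minus the WT effect was -3.15 ± 0.17 on the log2 scale, an 8.87-fold smaller ratio.

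The genotype order of ARRDC3 turned round with the drug. GLI2 KO cells had 41.3 ± 2.97 CPM with paclitaxel and WT cells 244.8 ± 24.4 CPM (SD, n = 3 each), which is 5.93-fold lower in GLI2 KO cells (log2 difference -2.57 ± 0.12). With DMSO the means were 27.6 ± 3.81 CPM in GLI2 KO cells and 18.4 ± 1.79 CPM in WT cells, so that ARRDC3 was higher in GLI2 KO cells by a log2 difference of 0.58 ± 0.13. Among the 11381 genes that reached a mean of 5 CPM in at least 1 group, none had a lower difference of the paclitaxel effect than ARRDC3. Over all 21974 tested genes it ranked 59th from the bottom, behind genes of lower abundance. For GLI2 KO against WT with paclitaxel alone it was 6th from the bottom of the 11381 genes.

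Of the 5 genes 1, ARRDC3, was called for a difference of the paclitaxel effect between genotypes. Genome-wide 13.5% of tested genes were called there, 6.56% for a higher and 6.93% for a lower effect in GLI2 KO cells. The other 4 had differences of 0.11 ± 0.08 (ARRDC1), -0.15 ± 0.06 (ARRDC2), -0.35 ± 0.19 (ARRDC4) and 0.26 ± 0.12 (TXNIP) on the log2 scale, and none of them was called. A missing call does not show that their effects were equal: for ARRDC4 and TXNIP the call appears when 1 library is left out, with differences of -0.47 for ARRDC4 without the 3rd GLI2 KO paclitaxel library and 0.34 for TXNIP without the 1st. The ARRDC2 difference was likewise called, at -0.21, without the 1st WT DMSO library.

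**Figure D2:**
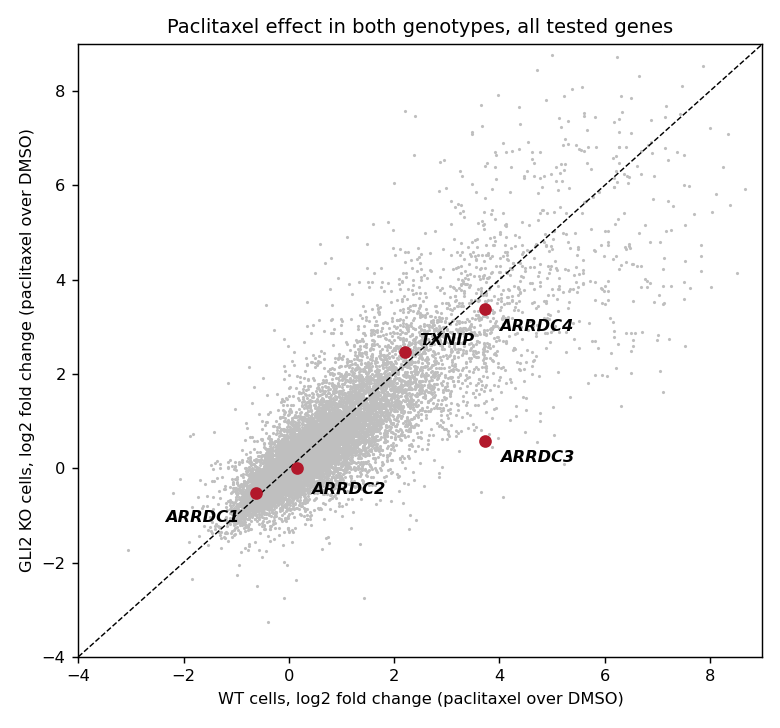
Each grey point is 1 of the 21974 tested genes, placed by its paclitaxel effect (log2 fold change, paclitaxel over DMSO) in WT cells on the horizontal axis and in GLI2 KO cells on the vertical axis; the dashed line marks equal effects. TXNIP (2.46 in GLI2 KO, 2.20 in WT) and ARRDC4 (3.37 in GLI2 KO, 3.72 in WT) lie near the line and ARRDC3 (0.58 in GLI2 KO, 3.73 in WT) far below it.

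The neighbourhood of ARRDC3 on chromosome 5 did not share its pattern. Of the 10 tested genes nearest to it, 5 on each side, differences of the paclitaxel effect ran from -0.39 to 0.38 with a median of -0.14 on the log2 scale. A single gene among them passed the threshold, the long noncoding RNA gene LUCAT1, and in the other direction (0.38, edgeR adjusted p = 0.0299). For GLI2 KO against WT with paclitaxel the 10 neighbours ran from -0.50 to 1.39, with a median of 0.05. The antisense gene ARRDC3-AS1, whose exons cover 2.94% of the ARRDC3 exon bases, averaged 0.566 CPM with paclitaxel and 0.285 CPM with DMSO in GLI2 KO cells, and 0.814 and 0.337 CPM in WT cells. It rose with paclitaxel in both genotypes, by 1.0 ± 0.30 in GLI2 KO cells and 1.27 ± 0.28 in WT cells on the log2 scale (edgeR adjusted p = 0.00535 and 0.000333), and its difference between genotypes was -0.27 ± 0.41 (adjusted p = 0.747). The sources used here do not say whether reads were counted by strand. At under 1 CPM the antisense gene is far below the ARRDC3 counts.

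ARRDC4 (ENSG00000140450, chr15:97960698-97973838, plus strand) rose strongly and to similar levels in both genotypes. With paclitaxel it had 21.6, 26.2 and 30.2 CPM in GLI2 KO cells and 29.4, 29.7 and 31.4 CPM in WT cells. With DMSO it had 2.18, 2.51 and 2.86 CPM in GLI2 KO cells and 2.38, 2.20 and 2.28 CPM in WT cells. The treatments were far apart in both genotypes, while GLI2 KO and WT libraries overlapped within each treatment. The rise was 10.3-fold in GLI2 KO cells (log2 fold change 3.37 ± 0.13) and 13.2-fold in WT cells (3.72 ± 0.13). Among the 11381 genes of at least 5 CPM it was the 16th highest paclitaxel effect in GLI2 KO cells and the 21st in WT cells. It reached 5 CPM only in the paclitaxel groups, so that filter favours a high rank. Over all 21974 tested genes it ranked 605th from the top in GLI2 KO cells and 582nd in WT cells. The GLI2 KO minus WT log2 difference was -0.21 ± 0.10 with paclitaxel and 0.14 ± 0.16 with DMSO, and neither was called. Without the 3rd GLI2 KO paclitaxel library, which had the highest ARRDC4 of its group, the difference with paclitaxel was -0.33 and was called.

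TXNIP (ENSG00000265972, chr1:145992435-145996600, minus strand) also rose in both genotypes. Its levels with paclitaxel were 195, 212 and 248 CPM in GLI2 KO cells and 205, 217 and 236 CPM in WT cells. With DMSO they were 39.5, 39.1 and 40.0 CPM in GLI2 KO cells and 48.6, 47.1 and 47.4 CPM in WT cells. The paclitaxel libraries of the 2 genotypes overlapped, and the DMSO libraries did not overlap, with GLI2 KO lower. The rise was 5.52-fold in GLI2 KO cells (log2 fold change 2.46 ± 0.09) and 4.59-fold in WT cells (2.20 ± 0.09). The GLI2 KO minus WT log2 difference was -0.01 ± 0.08 with paclitaxel and -0.27 ± 0.09 with DMSO. The DMSO difference was called, but the call was lost when any 1 of the 6 DMSO libraries was left out, with values from -0.28 to -0.25.

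The 3rd paclitaxel library had the highest ARRDC3, ARRDC4 and TXNIP of its group in both genotypes; the labels state no pairing of libraries across groups. The spread within the GLI2 KO paclitaxel group was wide for ARRDC4 (26.0 ± 4.27 CPM) and TXNIP (218 ± 26.9 CPM, against 219 ± 15.7 CPM in WT cells).

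ARRDC1 (ENSG00000197070, chr9:137605654-137615360, plus strand) fell with paclitaxel. It had 11.7, 10.9 and 10.9 CPM with paclitaxel and 16.6, 16.1 and 15.4 CPM with DMSO in GLI2 KO cells. In WT cells it had 8.78, 9.47 and 9.42 CPM with paclitaxel and 14.1, 14.0 and 14.7 CPM with DMSO. Neither pair of treatment groups overlapped, and GLI2 KO cells were the higher in both treatments. The log2 fold change with paclitaxel was -0.52 ± 0.05 in GLI2 KO cells and -0.63 ± 0.05 in WT cells. GLI2 KO minus WT was 0.27 ± 0.05 with paclitaxel and 0.17 ± 0.05 with DMSO. The DMSO value was 0.15 and no longer called without the 1st GLI2 KO DMSO library.

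ARRDC2 (ENSG00000105643, chr19:18001132-18014102, plus strand), the least changed of the 5 with paclitaxel, had 34.7, 32.7 and 35.2 CPM with paclitaxel and 33.5, 33.9 and 35.4 CPM with DMSO in GLI2 KO cells, which overlap. In WT cells it had 32.1, 31.6 and 31.6 CPM with paclitaxel and 30.7, 26.8 and 28.2 CPM with DMSO, which do not. Its log2 fold change with paclitaxel was below 0.01 in size in GLI2 KO cells (SE 0.04). It was 0.15 ± 0.04 in WT cells, a call that was lost without the 2nd WT DMSO library (0.10). Scaling by library totals or upper quartiles in place of TMM put the GLI2 KO effect at 0.17 or 0.12 and past the threshold, so no direction is given for it. GLI2 KO minus WT was 0.11 ± 0.04 with paclitaxel, a call lost in 6 of 8 other settings and in 7 of 12 fits without 1 library, and 0.26 ± 0.04 with DMSO.

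Between genotypes, 2 of the 5 genes were called higher in GLI2 KO cells with paclitaxel and 1 lower, where 23.4% and 22.2% of all tested genes were called in those directions (45.6% in either). With DMSO 3 were called higher and 1 lower, against 22% and 19.6% of all genes (41.6% in either). The median log2 difference of the 5 was -0.01 with paclitaxel and 0.17 with DMSO, against -0.01 and 0.01 over all genes. Called genes were again those without overlap, which held for 27.9% (higher) and 27.3% (lower) of all genes with paclitaxel and for 25% and 23.6% with DMSO.

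**Figure D3:**
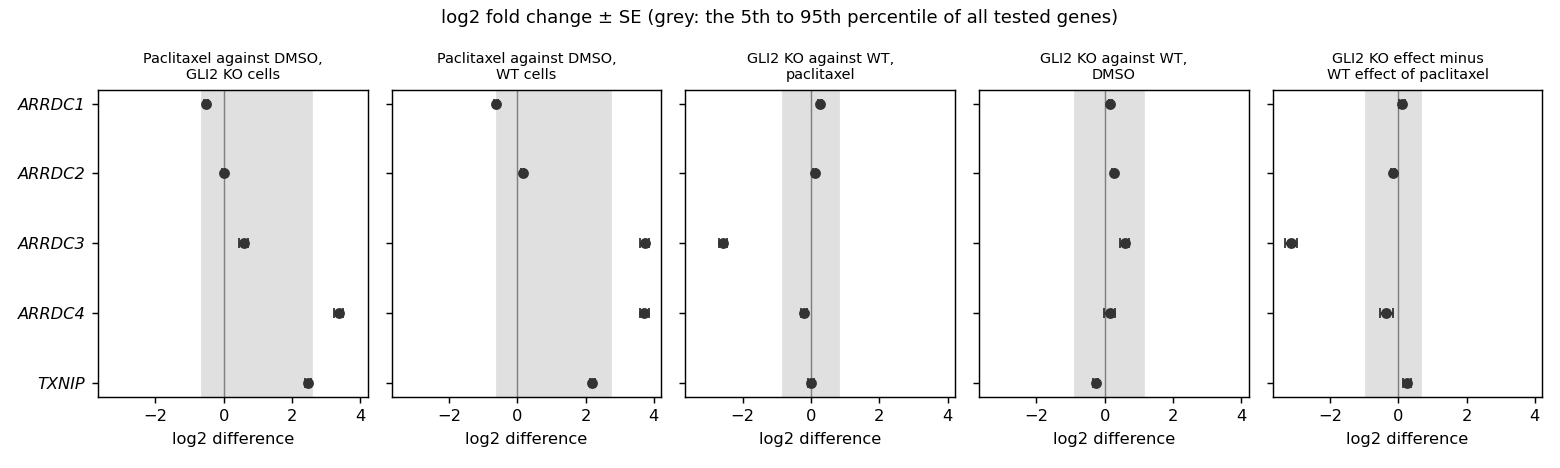
Log2 difference ± SE of each gene in the 5 comparisons; the grey band spans the 5th to the 95th percentile of all tested genes. ARRDC4 lies above the band for paclitaxel against DMSO in both genotypes and ARRDC3 above it in WT cells, ARRDC1 lies just below it in WT cells (-0.63), and ARRDC3 lies below it for GLI2 KO against WT with paclitaxel (-2.57) and for the difference of the paclitaxel effect (-3.15).

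To compare the genes with each other, levels were divided by the exon length of each gene in kilobases (RPKM). In GLI2 KO cells with paclitaxel the order was TXNIP at 60.2, ARRDC3 at 8.36, ARRDC2 at 7.38, ARRDC4 at 6.39 and ARRDC1 at 2.92 RPKM. With DMSO the same cells had TXNIP at 10.9, ARRDC2 at 7.39, ARRDC3 at 5.59, ARRDC1 at 4.19 and ARRDC4 at 0.617 RPKM. WT cells with paclitaxel had TXNIP at 60.5, ARRDC3 at 49.6, ARRDC4 at 7.41, ARRDC2 at 6.85 and ARRDC1 at 2.41 RPKM. WT cells with DMSO had TXNIP at 13.2, ARRDC2 at 6.16, ARRDC1 at 3.73, ARRDC3 at 3.72 and ARRDC4 at 0.561 RPKM. TXNIP was therefore the most abundant per length in every group and ARRDC4 the least in both DMSO groups. ARRDC1 and ARRDC3 in WT DMSO cells did not differ beyond their spread, and dividing by the longest transcript instead put ARRDC2 above ARRDC4 in WT cells with paclitaxel.

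The summed level of the 5 genes was 85.3 ± 9.07 RPKM with paclitaxel and 28.7 ± 0.521 RPKM with DMSO in GLI2 KO cells, and 126.8 ± 9.54 and 27.3 ± 1.01 RPKM in WT cells (SD, n = 3 each). ARRDC3 made up 9.83% ± 0.339 of the sum in GLI2 KO cells and 39.1% ± 0.945 in WT cells with paclitaxel, and 19.5% ± 2.36 and 13.6% ± 0.830 with DMSO. TXNIP made up 70.5% ± 1.19 of it in GLI2 KO cells and 47.7% ± 0.181 in WT cells with paclitaxel, and 38.0% ± 1.11 and 48.2% ± 1.05 with DMSO. The ARRDC3 to TXNIP ratio was accordingly 0.139 ± 0.00717 in GLI2 KO cells, against 0.820 ± 0.0229 in WT cells, with paclitaxel. With DMSO it was 0.513 ± 0.0759 in GLI2 KO cells and 0.283 ± 0.0233 in WT cells. The ARRDC4 to TXNIP ratio was closer between genotypes, at 0.106 ± 0.00596 in GLI2 KO and 0.123 ± 0.00475 in WT cells with paclitaxel.

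**Figure D4:**
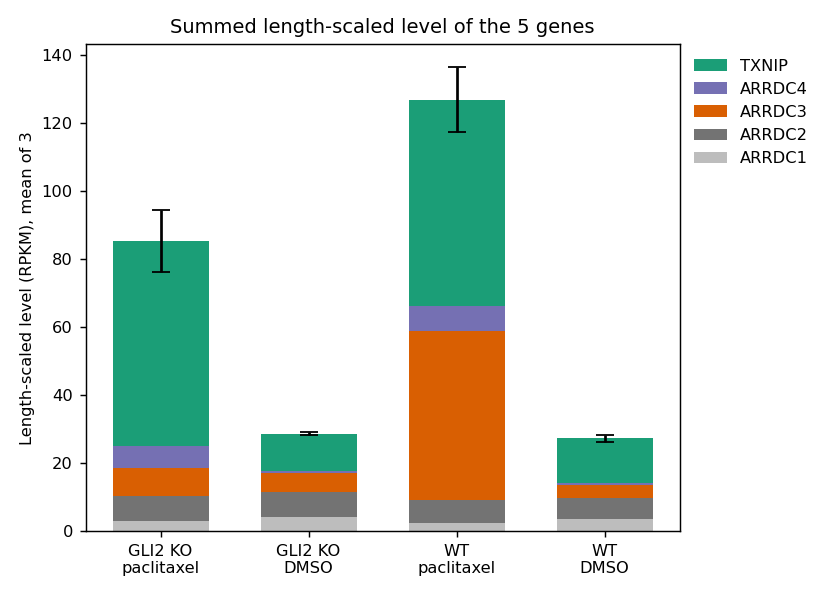
Mean level per exon length (RPKM) of the 5 genes stacked for each group, with the SD of the sum over 3 replicates as the bar. The sum is 85.3 RPKM in GLI2 KO cells and 126.8 RPKM in WT cells with paclitaxel, and the ARRDC3 segment is 8.36 RPKM in those GLI2 KO cells and 49.6 RPKM in those WT cells.

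Likeness was measured by the root-mean-square difference of mean-centred log2 levels over the 12 samples. ARRDC4 and TXNIP lay 0.630 apart, farther than either of these 2 lay from the genes named below for it. ARRDC1 and ARRDC2 lay 0.341 apart, but genes that change little lie close by this measure whatever their direction. With paclitaxel in WT cells, ARRDC1 changed by -0.63 and ARRDC2 by 0.15 on the log2 scale. ARRDC3 lay at 0.962 from TXNIP and 1.10 from ARRDC4. Among 11150 other genes, those most like ARRDC4 were the replication-dependent histone gene H4C8 (0.214), ARL14 (0.259), the immediate-early gene ARC (0.281), the linker histone gene H1-2 (0.345) and CPNE7 (0.347). Those most like TXNIP were NEK10 (0.189), XIRP2 (0.258), the stress-response factor gene ATF3 (0.265), TSPAN2 (0.269) and TXK (0.288). No gene was as close to ARRDC3. The nearest were the histone genes H2BC5 (0.456), H2BC12 (0.550) and H2BC4 (0.705), then LASP1NB (0.707) and H2AC6 (0.721), a measure added for ARRDC3 after its values were seen. H2BC5 had log2 fold changes with paclitaxel of 1.63 in GLI2 KO cells and 3.70 in WT cells. For H2BC12 they were 0.71 in GLI2 KO cells and 2.67 in WT cells. Histone genes of 1 cluster are close copies, so how their reads were split is uncertain. The libraries were of polyadenylated RNA, so the histone counts cover only that fraction of their transcripts.

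Among the 11 genes of the NEDD4-family ligases and their NDFIP adaptors, the enzymes that alpha-arrestins recruit, 1 rose and 5 fell with paclitaxel in GLI2 KO cells and 2 rose and 7 fell in WT cells by edgeR. Of all tested genes 33% rose and 32.2% fell in GLI2 KO cells, and 34.6% and 32.1% in WT cells. These shares are the background for this and the following lists. A count near them is no result about a list, and no list was tested as a set. The median log2 fold change of the 11 genes was -0.12 in GLI2 KO cells and -0.17 in WT cells. The lean to lower levels depends on the scaling: with library totals 5 rose and 1 fell in GLI2 KO cells and 4 rose and 3 fell in WT cells. HECW2 rose under either, to 9.05 ± 0.878 CPM in GLI2 KO cells, against 4.42 ± 0.195 CPM with DMSO (adjusted p = 1.30e-10), and to 8.37 ± 0.731 CPM in WT cells, against 3.12 ± 0.333 CPM (adjusted p = 7.67e-13). SMURF2 fell to 195 ± 0.943 CPM in GLI2 KO cells, against 274 ± 11.8 CPM with DMSO, and to 186 ± 8.46 CPM in WT cells, against 283 ± 6.81 CPM (adjusted p = 7.45e-12 and 1.42e-13). Between genotypes 6 were higher and 1 lower in GLI2 KO cells with paclitaxel, and 7 higher and 1 lower with DMSO. The background here and for the following lists was 23.4% higher and 22.2% lower with paclitaxel, and 22% and 19.6% with DMSO. WWP1 was higher in GLI2 KO cells at 72.5 ± 2.54 CPM, against 45.7 ± 0.955 CPM in WT cells, with paclitaxel and at 74.1 ± 2.12 CPM in GLI2 KO cells, against 44.6 ± 0.159 CPM in WT cells, with DMSO (adjusted p = 2.73e-14 and 3.74e-15). NEDD4L was the lower one, with log2 differences of -0.32 ± 0.03 with paclitaxel and -0.48 ± 0.03 with DMSO (adjusted p = 7.37e-09 and 5.67e-12).

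Of 10 reported cargoes and partners of alpha-arrestins, 6 fell and 0 rose with paclitaxel in GLI2 KO cells, and 7 fell and 0 rose in WT cells by edgeR. At an unadjusted p under 0.05, and by DESeq2, 0 rose as well. With library totals 3 rose and 4 fell in GLI2 KO cells, and 1 rose and 6 fell in WT cells. ITGB4, the described ARRDC3 cargo, was lower in GLI2 KO cells in both treatments. It had 4.22 ± 0.497 CPM in GLI2 KO cells, against 8.34 ± 0.419 CPM in WT cells, with paclitaxel and 3.61 ± 0.705 CPM in GLI2 KO cells, against 11.2 ± 1.03 CPM in WT cells, with DMSO (adjusted p = 5.73e-07 and 8.07e-10). INSR, the insulin receptor, fell by 0.92 ± 0.05 in GLI2 KO cells and 1.01 ± 0.05 in WT cells (adjusted p = 4.73e-14 and 1.74e-14), and EGFR, the epidermal growth factor receptor, by 0.28 ± 0.03 in GLI2 KO cells and 0.39 ± 0.03 in WT cells (adjusted p = 1.08e-08 and 3.40e-11). DDIT4, a stress-induced inhibitor of mTORC1 signalling, had 75.8 ± 5.05 CPM in GLI2 KO cells, against 36.0 ± 5.54 CPM in WT cells, with paclitaxel and 62.6 ± 0.997 CPM in GLI2 KO cells, against 45.3 ± 9.43 CPM in WT cells, with DMSO. It was higher in GLI2 KO cells by 1.08 ± 0.16 with paclitaxel and 0.46 ± 0.16 with DMSO (adjusted p = 0.000533 and 0.0461). DDIT4 shares 41.2% of its exon bases with an antisense gene, so its counts are uncertain. TSG101, the partner of ARRDC1, fell by 0.17 ± 0.03 in GLI2 KO cells and 0.28 ± 0.03 in WT cells (adjusted p = 4.42e-05 and 2.85e-08). Library totals move the median gene by 0.18 in GLI2 KO cells and 0.16 in WT cells, so the TSG101 change in GLI2 KO cells was no larger than that shift.

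Of the transcription factors known to act on TXNIP and ARRDC4, MLXIP was lower with paclitaxel in both genotypes, as was its partner MLX, and the rare MLXIPL was higher. MLXIP had 78.8 CPM with paclitaxel and 96.2 CPM with DMSO in GLI2 KO cells, and 81.5 and 103.4 CPM in WT cells, with log2 fold changes of -0.29 ± 0.03 in GLI2 KO cells and -0.34 ± 0.03 in WT cells (adjusted p = 4.38e-09 and 1.80e-10). Its partner MLX had 83.7 and 105.8 CPM in GLI2 KO cells and 71.8 and 90.1 CPM in WT cells, with log2 fold changes of -0.34 in GLI2 KO cells and -0.33 in WT cells. MLXIPL was rare, at 0.50 CPM with paclitaxel and 0.211 CPM with DMSO in GLI2 KO cells and 1.01 and 0.381 CPM in WT cells. It rose by 1.25 ± 0.31 in GLI2 KO cells and 1.43 ± 0.26 in WT cells on the log2 scale (adjusted p = 0.00122 and 3.83e-05). In all 12 genes of the Mondo, MYC and MAX network, 5 rose and 4 fell with paclitaxel in each genotype. With library totals 7 rose and 4 fell in GLI2 KO cells, and 8 rose and 3 fell in WT cells. MXD1, a repressor that pairs with MAX, rose by 0.49 ± 0.04 in GLI2 KO cells and 0.78 ± 0.04 in WT cells (adjusted p = 5.58e-10 and 1.13e-13).

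Other reported targets of MondoA and ChREBP did not move as one group. Of 18, 7 rose and 8 fell with paclitaxel in GLI2 KO cells and 8 rose and 8 fell in WT cells, with medians of -0.01 and 0.05 on the log2 scale. RGS16, a regulator of G-protein signalling, rose by 2.54 ± 0.20 in GLI2 KO cells and 2.92 ± 0.18 in WT cells (adjusted p = 3.41e-10 and 5.50e-12). KLF10, a transcription factor, had 65.7 ± 3.76 CPM with paclitaxel and 27.4 ± 0.576 CPM with DMSO in GLI2 KO cells, and 55.2 ± 0.905 and 25.4 ± 0.658 CPM in WT cells (adjusted p = 2.89e-18 and 4.29e-17). FASN, fatty acid synthase, went the other way and fell by 1.37 ± 0.08 in GLI2 KO cells and 1.21 ± 0.08 in WT cells (adjusted p = 3.64e-08 and 1.03e-07). Between genotypes 11 of the 18 were higher and 4 lower in GLI2 KO cells with paclitaxel, and 8 higher and 2 lower with DMSO.

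Among 10 genes of the SLC2A family, which includes glucose transporters that TXNIP and ARRDC4 act on, 2 rose and 5 fell with paclitaxel in GLI2 KO cells. In WT cells 2 rose and 6 fell. With library totals 4 rose and 4 fell in GLI2 KO cells, and 2 rose and 4 fell in WT cells. SLC2A4, the insulin-responsive transporter, fell by 0.63 ± 0.10 in GLI2 KO cells and 0.69 ± 0.11 in WT cells (adjusted p = 3.63e-06 and 5.41e-06). SLC2A13, a proton-coupled inositol transporter, fell by 0.67 ± 0.07 in GLI2 KO cells and 0.50 ± 0.07 in WT cells (adjusted p = 3.77e-09 and 1.65e-06). Between genotypes 5 of the 10 were higher and 1 lower in GLI2 KO cells with paclitaxel, and 6 higher and 2 lower with DMSO. SLC2A10 was lower in GLI2 KO cells by both comparisons, with log2 differences of -0.70 ± 0.18 with paclitaxel and -1.23 ± 0.19 with DMSO (adjusted p = 0.00257 and 6.97e-06). SLC2A1, the main transporter of most cultured cells, had 251 ± 14.0 CPM with paclitaxel and 302 ± 5.08 CPM with DMSO in GLI2 KO cells, and 184 ± 4.25 and 219 ± 2.77 CPM in WT cells. It was higher in GLI2 KO cells by 0.45 ± 0.03 with paclitaxel and 0.46 ± 0.03 with DMSO (adjusted p = 3.77e-11 and 1.92e-11). For a difference of the paclitaxel effect 0 of the 10 passed by edgeR and 0 by DESeq2, and 2 had an unadjusted edgeR p under 0.05, 1 in each direction.

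In the thioredoxin and peroxiredoxin system 1 of 13 genes rose and 8 fell with paclitaxel in GLI2 KO cells, and 2 rose and 4 fell in WT cells. That direction also depends on the scaling, since with library totals 6 rose and 2 fell in GLI2 KO cells and 7 rose and 2 fell in WT cells. TXN, the thioredoxin that TXNIP binds, had 284 ± 16.7 CPM with paclitaxel and 326 ± 24.8 CPM with DMSO in GLI2 KO cells (adjusted p = 0.00346), and 327 ± 10.2 and 338 ± 10.1 CPM in WT cells (adjusted p = 0.473). PRDX2, a cytosolic peroxiredoxin, fell by 0.43 ± 0.03 in GLI2 KO cells and 0.36 ± 0.03 in WT cells (adjusted p = 8.94e-12 and 2.92e-10). TXNRD1, thioredoxin reductase, was lower in GLI2 KO cells, with log2 differences of -0.43 ± 0.06 with paclitaxel and -0.47 ± 0.06 with DMSO (adjusted p = 3.19e-05 and 1.35e-05). SRXN1, sulfiredoxin, was lower in them too, by log2 differences of -0.72 ± 0.14 with paclitaxel and -0.87 ± 0.14 with DMSO (adjusted p = 0.000165 and 3.41e-05), but it shares 85.0% of its exon bases with another annotated gene, so its counts are uncertain.

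Glucocorticoid receptor targets were followed because several alpha-arrestin genes are reported to respond to such hormones. Of 7, 5 rose and 1 fell with paclitaxel in GLI2 KO cells and 5 rose and 2 fell in WT cells. PER1, a clock gene, rose by 1.98 ± 0.05 in GLI2 KO cells and 1.22 ± 0.05 in WT cells, a difference of 0.76 ± 0.07 (adjusted p = 3.29e-07) and opposite in sign to that of ARRDC3. KLF9 rose by 1.5 ± 0.08 in GLI2 KO cells and 1.28 ± 0.10 in WT cells (adjusted p = 3.43e-14 and 4.82e-11), and TSC22D3 (GILZ) by 1.07 ± 0.06 in GLI2 KO cells and 0.68 ± 0.06 in WT cells (adjusted p = 4.76e-14 and 4.81e-10). FKBP5, a co-chaperone of the receptor, fell by 0.55 ± 0.03 in GLI2 KO cells and 0.56 ± 0.03 in WT cells (adjusted p = 2.54e-13 and 1.85e-13). DUSP1, a phosphatase of MAP kinases, had a log2 change of 0.44 ± 0.18 in GLI2 KO cells (adjusted p = 0.0552) and rose by 1.15 ± 0.18 in WT cells (adjusted p = 0.000399), and the difference of -0.71 ± 0.25 did not pass (adjusted p = 0.106).

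The beta-arrestin genes, from the sister branch of the family, differed by genotype. ARRB1 was higher in GLI2 KO cells by 0.60 ± 0.06 with paclitaxel and 0.87 ± 0.06 with DMSO (adjusted p = 3.35e-08 and 1.58e-10). ARRB2 was higher in GLI2 KO cells by 0.35 ± 0.05 with paclitaxel and 0.51 ± 0.05 with DMSO (adjusted p = 1.31e-06 and 2.37e-09). SAG, visual arrestin, was rare, at 0.134 CPM with paclitaxel and 0.0524 CPM with DMSO in GLI2 KO cells. Of these 3 genes it alone was called higher with paclitaxel in GLI2 KO cells, where DESeq2 called 0 and the fit with library totals 3, and all 3 were called higher in WT cells. ARRDC5 and ARR3 were not analysed here.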

How the data were processed

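Polyadenylated RNA of 12 MDA-MB-231b samples was extracted with QIAzol and made into cDNA with a qScript kit, per the labels' protocols. The authors deposited a table of raw read counts per gene for 25049 genes. They also deposited a table of size-factor-scaled counts, treated here as a signal: each column equals the counts times 1 constant (largest relative deviation 5.33e-15), so it was used only for that check. Per the submitters' processing notes, hg38, STAR, Trim Galore 0.6.7 and DESeq2 1.36.0 were used, in roles the notes do not state; counting tool, annotation and strand setting were not given in the sources used here. All 12 columns were matched by name, with 0 unused columns and 0 unnamed rows.

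Counts were fitted with edgeR 4.0.16 (R 4.3.3): TMM factors, filterByExpr with a minimum count of 10 (21974 genes), robust quasi-likelihood F tests over 4 group means (8 residual degrees of freedom), and Benjamini-Hochberg adjustment over all tested genes with a threshold of 0.05. The 5 comparisons were paclitaxel against DMSO in each genotype, GLI2 KO against WT in each treatment, and the difference of the paclitaxel effects. SE is the size of the log2 fold change divided by the square root of F. CPM are TMM-scaled. By library totals without TMM factors, 3 counts correspond to 0.0275 to 0.0360 CPM. Exact permutation tests of 3 against 3 samples cannot go below p = 0.1 and were not used. The labels do not say that replicates were separate cultures, so the p-values reflect the spread of these libraries alone and that may be a technical spread.

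Gene lengths and coordinates come from GENCODE 29 (GRCh38), which held 93.4% of the symbols and can differ from the annotation used for counting. Upstream sequences come from RefSeq (GRCh38.p14), in which all 5 genes matched, with 8 windows. Likeness used mean-centred log2 CPM (prior count 2) of genes of at least 5 CPM. The members and the 8 pathway and 4 marker lists were chosen with earlier results of these data known; 1 gene of the cargo list is not reported here. Open to naming from each list were up to 4 genes per comparison with the largest change past the threshold and at least 1 CPM on average in one of the groups, plus MLXIP, MLX and MLXIPL, and the text gives a part of them; TSG101 was named for its role, as were SLC2A1 and TXN in comparisons where the rule left them out, and SAG, after their values were seen. Alternatives were DESeq2 1.42.0, other scalings and filters, a non-robust fit, a block by neighbouring library number (added later) and leaving out each library; the scripts were tested on simulated data.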

Additional observations from a re-analysis of the deposited data

Results flagged for a closer look

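The paclitaxel effect differed between genotypes, by the edgeR test of that difference, for 18 of the named genes, given here as GLI2 KO effect minus WT effect on the log2 scale. All of them but ARRDC3 were open to naming because they passed this same test, so the count is no result. Of all tested genes 13.5% were called for the difference. LUCAT1 and the histone genes named for likeness were outside the 18. H2BC5, for one, had log2 fold changes with paclitaxel of 1.63 in GLI2 KO cells and 3.70 in WT cells. Among the 18, ARRDC3 had the most negative value (-3.15), which is given as a description. Values above 0 were found for the glucocorticoid receptor targets PER1 (0.762), KLF15 (0.665) and TSC22D3 (0.388), for ITGB4 (0.64), for the ligases ITCH (0.278) and NEDD4L (0.152), for the thioredoxin reductases TXNRD3 (0.252) and TXNRD2 (0.214) and for ME1 (0.186). Values below 0 were found for the ligases HECW2 (-0.397) and SMURF1 (-0.243), PRDX4 (-0.359), KHK (-0.352), BHLHE40 (-0.288), MXD1 (-0.284), ARRB1 (-0.265) and ACACB (-0.198). KLF15 changed by 0.47 ± 0.08 in GLI2 KO cells and -0.19 ± 0.08 in WT cells (edgeR adjusted p = 6.79e-06 and 0.0300). The WT value depends on the scaling: it was -0.06 with upper quartiles and -0.03 with library totals, neither called (adjusted p = 0.513 and 0.708). PRDX4, a peroxiredoxin of the endoplasmic reticulum, changed by -0.08 ± 0.03 in GLI2 KO cells and 0.28 ± 0.03 in WT cells (adjusted p = 0.0368 and 5.06e-08), and the GLI2 KO value was 0.04 with upper quartiles and 0.10 with library totals (adjusted p = 0.223 and 0.00610). With 1 of the 12 libraries left out at a time, the call was lost at least in 1 fit for HECW2, BHLHE40, ARRB1, TXNRD3, TXNRD2, ACACB, ME1 and NEDD4L, most often for ME1 (10 of 12 fits), and in no fit for the other 10 genes. Groups of 3 libraries were too small to look for single outlying samples.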

How the results depend on the processing

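The labels carry library numbers but no replicate numbers, and state no pairs. Every WT library has a lower number than every GLI2 KO library. A genotype difference therefore cannot be told apart from an effect of library order, if there was one. A fit chosen after seeing the data took neighbouring library numbers (WT or GLI2 KO, 1 paclitaxel and 1 DMSO library each) as a replicate block. Deviations from the group means correlated by -0.0278 to 0.0676 within these 6 pairs. In every GLI2 KO pair, the paclitaxel library correlated best with the DMSO library of its own pair. Among WT pairs this held for the 3rd paclitaxel library and not for the others. With the block 14590 genes were called in GLI2 KO cells, 14941 in WT cells and 3832 for the difference, against 14327, 14660 and 2963 without it. It made calls of the differences of ARRDC2 (-0.16) and ARRDC4 (-0.35) and kept the other 13 of 15 values of the 5 genes. The rest of this section is without it.

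ARRDC3 kept direction and call under the other settings (8 for 4 comparisons, 7 for the difference of effects) and the 12 fits without 1 library; its difference of the paclitaxel effect ran from -3.16 to -3.13 over settings and from -3.26 to -3.07 over left-out libraries. Over the 5 genes, 467 of 495 alternative values kept direction and side of the threshold, and over the other named genes 2881 of 2977. These include fits without a library of neither group compared, which hardly test that comparison, so the shares overstate stability. For TXNIP between genotypes with DMSO, 6 of 12 fits without 1 library kept the call, none of them without a DMSO library. Of genome-wide counts of genes called in either direction, 99 of 99 stayed within 1.5 times. Counts in 1 direction moved by more, as given at the end.

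For ARRDC2 with paclitaxel in GLI2 KO cells, upper-quartile scaling gave 0.12 and library totals 0.17, both called, the reverse of the TMM sign. For ARRDC2 in GLI2 KO against WT with paclitaxel, the call was lost with upper-quartile scaling (0.073), library totals (0.10), no filter (0.10), a minimum count of 50 (0.10), the non-robust fit (0.11) and DESeq2 (0.11). ARRDC4 in GLI2 KO against WT with paclitaxel (-0.21) became a call with the non-robust fit. The cause was not tested in any of these. Leaving out 1 library gave 0.15 to 0.20 for ARRDC1 between genotypes with DMSO, and 0.10 to 0.21, 0.087 to 0.14 and -0.21 to -0.11 for ARRDC2 (paclitaxel in WT cells, genotypes with paclitaxel, and difference of effects). It gave -0.33 to -0.10 and -0.47 to -0.24 for ARRDC4 (genotypes with paclitaxel, and difference), and -0.28 to -0.25 and 0.16 to 0.34 for TXNIP (genotypes with DMSO, and difference). The ARRDC2 difference was called without the 1st WT DMSO library. 

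Scaling moved the median of all genes by 0.12 (upper quartile) and 0.18 (library totals) for paclitaxel in GLI2 KO cells and by 0.13 and 0.16 in WT cells. Called genes split 7250 higher to 7077 lower in GLI2 KO cells with TMM, 9324 to 4791 with upper quartiles and 10398 to 3831 with totals; in WT cells 7613 to 7047, 9905 to 4731 and 10352 to 4295. Small changes with paclitaxel are therefore relative to the scaling. RPKM levels moved with the longest transcript as length for all but ARRDC4.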
